A study of Homo sapiens with 23 samples.

Results

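HL-60 cells, a human acute myeloid leukemia line of promyelocyte character, were kept with 40 μM CIGB-300 and their transcripts at 3 h were set against those at 30 min. The comparison rests on 6 of the 23 arrays of the series, 3 for each time, chosen by their labels for cell line, agent and time point. CIGB-300 is a synthetic peptide with a cationic Tat segment that carries it into cells, and it was designed to block phosphorylation by protein kinase CK2 at the acceptor site of its substrates. The peptide was present in both groups, so a difference between them is a change of level over time under treatment and not an effect of the peptide against no peptide. Untreated HL-60 cells of each time (3 arrays each) gave the change that time in culture alone went along with. OCI-AML3 cells, another acute myeloid leukemia line, kept with 40 μM CIGB-300 for the same times (3 arrays each), gave the change of a second treated line. Each array was labelled by number as a replicate of its group, and no label says that 1 culture was sampled at both times. Both lines are grown in culture, with no other cell type of marrow or blood present by design.

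RNA was measured on Clariom S HT arrays, and the values are log2 signals after robust multi-array averaging (RMA), so that 1 unit is a doubling. Quantile normalization gives all arrays 1 distribution, so less RNA per cell and fewer cells cannot be told apart, and a change shared by all transcripts would not be seen. The median value of an HL-60 array was 5.38 to 5.44, and the median probe set had an SD of 0.16 among the 30 min arrays and 0.18 among the 3 h arrays. Pairs of treated arrays of different times had a mean Pearson's r of 0.986 across probe sets (9 pairs), against 0.991 within 30 min and 0.990 within 3 h (3 pairs each). Over 8 marker genes of promyelocytes the mean value of an array was 11.11 to 11.15 at 30 min and 10.98 to 11.07 at 3 h, far above the array median, and no member was called by limma (2 had an unadjusted p under 0.05). Over 6 T cell genes it was 3.66 to 4.09, and 1 of them, CD3E, part of the T cell receptor complex, was called lower (log2 change -0.75), a call that was lost without any 1 of 4 arrays, with an adjusted p of up to 0.141.

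Cells that meet a sudden stimulus first switch on immediate early genes, which need no new protein and whose short-lived transcripts often peak and fade quickly. Factors of the NF-kB family, held in the cytoplasm by inhibitor proteins, enter the nucleus when those inhibitors are destroyed and then drive genes of inflammation and survival. Among the genes they drive are their own inhibitors and subunits, a feedback known from many cell types. A transcript level is set by synthesis and by decay, and these arrays measure neither on its own.

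Between 30 min and 3 h of CIGB-300, 751 of 21448 probe sets were called (3.5%), 409 higher (1.91%) and 342 lower (1.59%). A probe set was called, and is said below to have risen or fallen, where the adjusted p of limma over all probe sets was under 0.05 and the fold change was at least 1.5. Of these, 326 of the risen and 303 of the fallen carry 1 gene symbol. In 401 of the 409 and in 334 of the 342 the 3 arrays of one time lay entirely beyond the 3 of the other, which was so for 23.7% of all probe sets. Rises reached further than falls. The largest rise was 4.62 on the log2 scale and the largest fall 1.75, 136 probe sets rose and 61 fell by 2-fold or more, and 18 rose and 0 fell by 4-fold or more. Without the peptide, 111 probe sets (0.518%) were called over the same time, 77 higher (0.359%) and 34 lower (0.159%). Called in both were 29 probe sets, with 24 in the same direction and 5 in opposite directions. They made up 3.86% of the treated calls, where 0.518% of all probe sets were called untreated. Of the untreated calls they made up 26.1%, where 3.5% of all probe sets were called treated. The median untreated change was 0.16 for the risen probe sets and -0.14 for the fallen ones. The difference of the treated and the untreated time change was itself called for 294 probe sets (1.37%), 158 with the higher change under the peptide (0.737%) and 136 with the lower (0.634%).

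**Figure D1:**
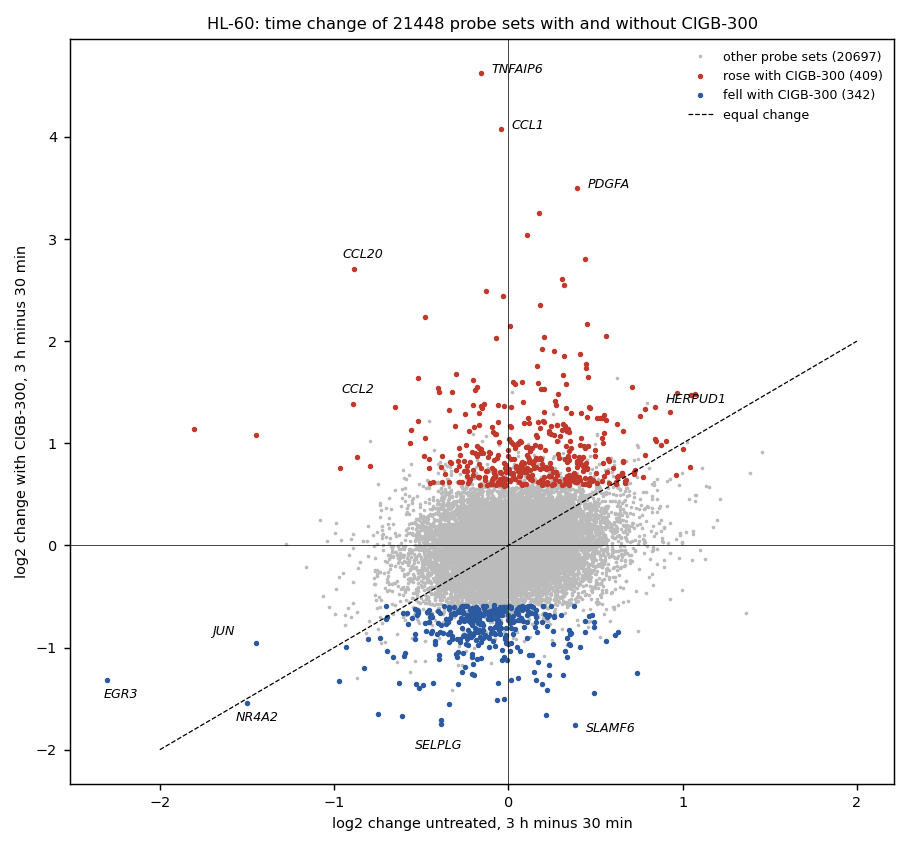
Log2 change from 30 min to 3 h with CIGB-300 (vertical axis) against the log2 change of untreated HL-60 cells (horizontal axis), 1 point for each of 21448 probe sets, with risen (409) and fallen (342) probe sets in color and a dashed line of equal change. The risen genes spread upward to 4.62 at untreated changes near 0, while JUN, EGR3 and NR4A2 fell with and without the peptide.

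The stretches below show sequence upstream of 5 genes the results turn on, chosen because they hold the motif in question, and read from the RefSeq promoter table of build GRCh38.p14 (250 bases before to 50 after the start of a gene) and written 5′ to 3′ in the direction of the gene. CCL20 encodes a chemokine, TNFAIP3 the ubiquitin-editing enzyme A20 that restrains NF-kB, NFKBIA the inhibitor IκBα, NFKB1 the subunit precursor p105 and EGR1 an immediate early zinc finger factor. Capitals mark a kappaB motif, on either strand, in the first 4 and the CArG box, the element that serum response factor recognises, in EGR1. A match is a match of letters only and shows no binding. Of the 15 genes with the largest rise, 10 had a promoter in the table, and CCL20 was the only 1 of these that held the kappaB motif.
CCL20, chr2:227813732-227813811, plus strand: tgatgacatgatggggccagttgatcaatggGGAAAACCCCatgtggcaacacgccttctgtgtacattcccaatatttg
TNFAIP3, chr6:137867159-137867238, plus strand: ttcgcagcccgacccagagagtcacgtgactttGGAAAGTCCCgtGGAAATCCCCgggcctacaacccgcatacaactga
NFKBIA, chr14:35404780-35404859, minus strand: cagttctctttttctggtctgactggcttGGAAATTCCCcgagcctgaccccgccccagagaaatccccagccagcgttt
NFKB1, chr4:102501279-102501358, plus strand: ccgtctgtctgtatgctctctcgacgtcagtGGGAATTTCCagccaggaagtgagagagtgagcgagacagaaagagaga
EGR1, chr5:138465349-138465428, plus strand: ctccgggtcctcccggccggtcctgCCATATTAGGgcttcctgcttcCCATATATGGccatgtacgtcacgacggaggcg

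Of 326 genes that rose, 263 had a promoter in the table, and 35 of these (13.3%) held a kappaB motif on either strand. Among the 258 matched promoters of the 303 genes that fell it was 12 (4.65%). The motif stood in 6.41% of 14250 matched promoters of genes on the array and in 5.72% of all 27305 promoters in the table. By gene list, 9 of 22 chemokine promoters (40.9%), 4 of 11 promoters of NF-kB subunits and inhibitors (36.4%) and 4 of 17 of NF-kB signal regulators (23.5%) held it, called or not. The CArG box was in 1.52% of the risen and 1.16% of the fallen genes' promoters, against 1.24% of genes on the array, and in 2 of 21 immediate early genes (9.52%). The AP-1 site TGANTCA, whose N is any base, was in 6.08% of the risen and 8.91% of the fallen, and the CRE TGACGTCA in 1.14% and 1.55%, against 5.75% and 2.62% on the array. These shares were not tested, and they describe a short window only.

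Most measured subunits and inhibitors of NF-kB rose between 30 min and 3 h of peptide. Of 14 measured members 8 rose, 0 fell and 6 were not called (57.1% called, against 3.5% of all probe sets), with a median log2 change of 0.68, against -0.01 over all probe sets. In untreated cells 0 of the 14 were called and their median change was 0.08. The difference of the treated and untreated change was called for 5 of them. RELB, the partner of p52 in the noncanonical arm, had 5.66, 5.20 and 5.57 in the 3 arrays at 30 min and 8.0, 8.40 and 7.86 at 3 h (log2 change 2.61 ± 0.21, SE, adjusted p = 1.61e-07, n = 3 arrays each). Its untreated arrays lay between 5.19 and 6.08 at both times, so the treated arrays stood among them at 30 min and all above them at 3 h. NFKB2, whose product p100 is cut to p52, went from 5.85, 5.98 and 5.81 to 8.41, 8.51 and 8.03 (2.44 ± 0.20, adjusted p = 3.2e-07), while the untreated change was -0.03 ± 0.20. The treated arrays again overlapped the untreated ones at 30 min and cleared them at 3 h. NFKB1 had 7.67, 7.68 and 7.74 at 30 min and 8.85, 9.08 and 8.80 at 3 h (1.21 ± 0.11, adjusted p = 1.26e-06), against an untreated change of 0.21 ± 0.11. REL, the subunit c-Rel, rose by less (0.84 ± 0.12, adjusted p = 0.000166). Its change did not differ by the test from that of untreated cells (difference 0.52 ± 0.17, adjusted p = 0.169). RELA, the main activating subunit p65, had 10.17, 10.05 and 10.10 at 30 min and 9.97, 9.97 and 9.88 at 3 h, all below the 30 min arrays by a small margin, and was not called (-0.17 ± 0.09, adjusted p = 0.301).

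Among the inhibitors, NFKBIA had 9.34, 9.32 and 9.22 at 30 min and 10.26, 10.85 and 10.42 at 3 h (1.22 ± 0.13, adjusted p = 4.57e-06). Untreated arrays went the other way, from 8.0 to 8.24 at 30 min to 7.44 to 7.70 at 3 h, a change that was not called (-0.52 ± 0.13, adjusted p = 0.0619). The difference of the 2 changes was called (1.74 ± 0.18, adjusted p = 1.7e-05), and no treated array overlapped an untreated one at either time. NFKBIE, another IκB protein, went from 7.08, 7.18 and 7.13 to 8.47, 8.64 and 8.72 (1.48 ± 0.13, adjusted p = 6.74e-07). It differed from NFKBIA at the start, since at 30 min its treated arrays were not above the untreated range of 7.11 to 7.50. IKBKE, an IκB kinase relative, rose by 0.72 ± 0.12, and NFKBID, a nuclear IκB protein, by 0.65 ± 0.11, both named after their values had been seen. The NFKBID call was lost without replicate 3 at 3 h, where the log2 change was 0.57, just under the fold threshold.

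Of 19 measured regulators of NF-kB signaling 5 rose and 0 fell (26.3% called), with a median change of 0.17. TNFAIP2, an inflammation-induced gene of endothelial and myeloid cells, had 7.17, 7.12 and 7.09 at 30 min and 9.94, 9.90 and 9.93 at 3 h (2.80 ± 0.12, adjusted p = 7.85e-11). TRAF1, an adaptor of TNF receptors, had 6.16, 6.32 and 5.89 and then 8.81, 8.48 and 8.55 (2.49 ± 0.21, adjusted p = 2.64e-07). TNFAIP3 had 10.05, 9.61 and 9.72 and then 11.61, 11.75 and 11.58 (1.85 ± 0.12, adjusted p = 2.25e-08), against an untreated change of 0.32 ± 0.12. For these genes the times did not overlap, which was a condition of the rule that named list members. Each of the 3 differences from the untreated change was called. CYLD, a deubiquitinase that damps the pathway (1.06 ± 0.13), and TRAF3, an adaptor that holds the noncanonical arm in check (0.84 ± 0.10), were the other 2. MAP3K8, a kinase upstream of MAP kinases, had 7.27, 7.58 and 7.31 at 30 min and 6.94, 7.06 and 7.59 at 3 h and was not called (-0.19 ± 0.26, adjusted p = 0.768).

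**Figure D2:**
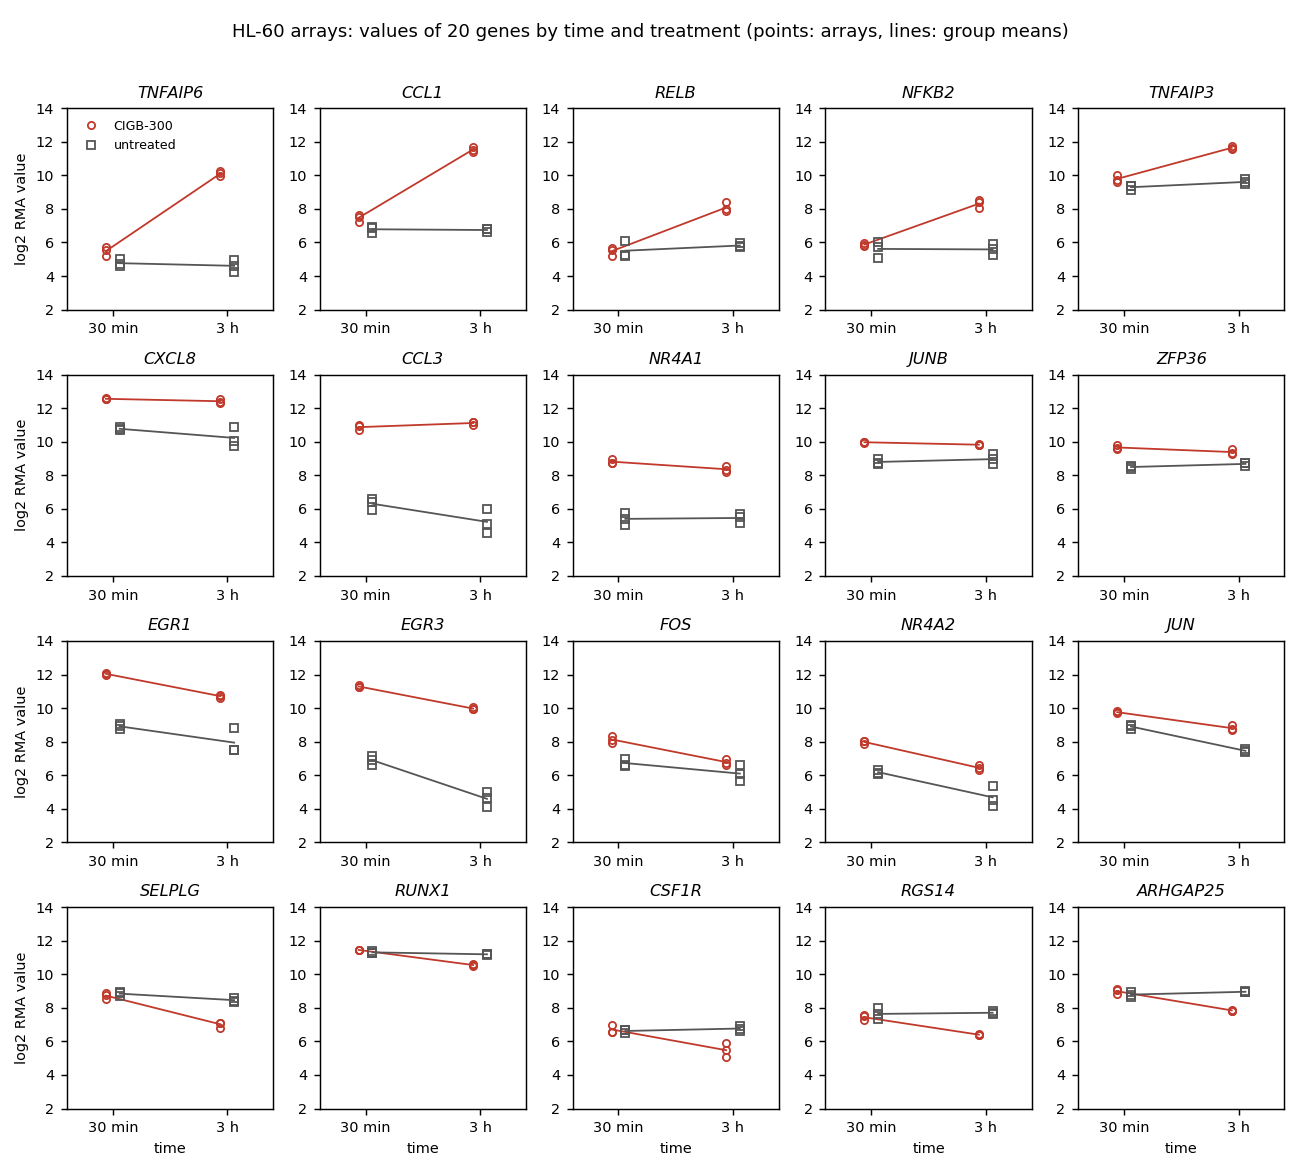
Log2 RMA values of 20 genes by time in HL-60 cells with CIGB-300 (circles) and in untreated HL-60 cells (squares), 3 arrays per group with lines between group means. The top row rises (TNFAIP6 from 5.49 to 10.11 on average), the second has no call between the times and lies above the untreated arrays (JUNB 9.97 and 9.82), the third falls with the peptide from a level above the untreated one (EGR1 from 12.04 to 10.71), and the bottom row falls with it (RUNX1 from 11.46 to 10.56) while untreated means move little.

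Secreted mediators gave the 3 largest rises among named genes. TNFAIP6, a hyaluronan-binding protein made in inflammation, had 5.72, 5.53 and 5.22 at 30 min and 10.27, 10.12 and 9.94 at 3 h. That is 24.6-fold (4.62 ± 0.22, adjusted p = 1.71e-10), and untreated arrays stayed between 4.27 and 5.00 at both times. CCL1, a ligand of the chemokine receptor CCR8 made by activated leukocytes, had 7.55, 7.62 and 7.25 and then 11.53, 11.72 and 11.41, which is 16.9-fold (4.08 ± 0.22, adjusted p = 7.55e-10). At 30 min every treated array of both genes already lay above every untreated one, by differences of 0.72 (adjusted p = 0.356) and 0.69 (adjusted p = 0.411) that were not called. PDGFA, a chain of platelet-derived growth factor, had 5.35, 5.43 and 5.31 and then 8.79, 9.04 and 8.77 (3.50 ± 0.17, adjusted p = 3.86e-10). Its untreated change was 0.39 ± 0.17, so that the difference was 3.11 ± 0.25 (adjusted p = 7.13e-07). Within the list of 24 growth factors and matrix proteins that holds TNFAIP6 and PDGFA, 4 rose, 1 fell (20.8% called) and the median change was 0.13. Besides these, SPP1, the matrix protein osteopontin, and ADM, the vasodilator peptide adrenomedullin, rose, and the calls of both were lost without single treated arrays (adjusted p up to 0.151 and 0.161). ADM was named after its values had been seen. ADM started from a treated level below the untreated one at 30 min (mean 5.35 against 6.35, a called difference, adjusted p = 0.0465), and its 3 h mean of 6.10 was still under the untreated 6.45. ADAMTS1, a secreted metalloprotease, fell by 0.68.

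Of 28 measured chemokines, 5 rose and 0 fell (17.9% called), with a median change of 0.16. CCL20, which draws cells with the receptor CCR6, had 6.90, 6.92 and 6.84 and then 9.60, 9.60 and 9.57 (2.70 ± 0.30, adjusted p = 1.08e-05). Its untreated arrays had 6.46, 6.73 and 5.96 and then 5.14, 5.39 and 5.96, a change that was not called (-0.89 ± 0.30, adjusted p = 0.205). The changes had opposite signs, and their difference was 3.59 ± 0.42 (adjusted p = 7.1e-05). CCL2, a monocyte attractant, was called in both comparisons in opposite directions. It had 10.26, 10.32 and 10.19 and then 11.68, 11.64 and 11.60 with the peptide (1.38 ± 0.14, adjusted p = 5.13e-06), and 7.57, 7.15 and 7.24 and then 6.74, 6.25 and 6.29 without it (-0.89 ± 0.14, adjusted p = 0.00511). CCL5, an attractant of T cells and monocytes, had 8.03, 8.10 and 7.67 and then 9.14, 9.47 and 9.35 (1.39 ± 0.11, adjusted p = 1.66e-07). CXCL10, an interferon-induced chemokine, rose from 3.00 to 3.44 to 4.47 to 4.89, values below the array median, and the call was lost without replicate 3 at 3 h (adjusted p = 0.0565).

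Other chemokines were high at 30 min and stayed so. CXCL8, the neutrophil attractant interleukin 8, had 12.53, 12.56 and 12.58 at 30 min and 12.37, 12.56 and 12.32 at 3 h (-0.14 ± 0.19, adjusted p = 0.759). Untreated arrays lay between 9.76 and 10.90, below every treated array at either time, and the highest value of any HL-60 array was 13.92. CCL3, an attractant of monocytes, had 10.92, 10.98 and 10.71 and then 11.02, 11.15 and 11.18 (0.25 ± 0.29, adjusted p = 0.721), against 4.55 to 6.57 in untreated arrays. The near-identical copy CCL3L3 changed by 0.13, and signal may be shared between the pair. The CXCL8 arrays of the times overlapped and those of CCL3 did not, by a narrow margin, whereas CCL1 and CCL20 rose far beyond their own 30 min arrays.

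Cytokines and ligands of the TNF family were mixed: of 31 measured members 6 rose and 2 fell (25.8% called), with a median change of 0.04. CD70, the ligand of CD27, had 3.18, 3.99 and 3.72 and then 5.71, 6.12 and 5.76 (2.23 ± 0.25, adjusted p = 1.32e-05), starting below the array median. TNFSF10, the death ligand TRAIL, had 7.79, 7.90 and 7.57 and then 9.84, 9.55 and 9.48 (1.87 ± 0.13, adjusted p = 2.25e-08). IL1B, the fever cytokine interleukin 1β, had 7.93, 7.91 and 7.87 and then 8.98, 9.11 and 8.98 (1.12 ± 0.12, adjusted p = 6.11e-06). In all of these the times did not overlap, again a condition of the rule that named list members. The difference from the untreated change was called for each. TNFSF14, the ligand LIGHT, rose as much without the peptide (1.00 ± 0.12) as with it (0.95 ± 0.12), with a difference of -0.05 ± 0.17. It was named after its values had been seen. KITLG, the stem cell factor, and CSF1, the macrophage growth factor, rose by 1.54 and 1.16, and IL23A and IL16, a subunit of interleukin 23 and a T cell attractant, fell by 0.81 and 0.70. All 4 calls were lost when certain treated arrays were left out, with adjusted p of up to 0.139 for KITLG, 0.054 for CSF1, 0.0866 for IL23A and 0.18 for IL16. IL18, a cytokine cleaved by caspase 1 as IL1B is, had 7.03, 7.18 and 7.02 and then 6.12, 6.63 and 6.35, which was not called (-0.71 ± 0.30, adjusted p = 0.191).

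Receptors and adhesion molecules of activated leukocytes moved both ways, with 9 of 37 measured higher and 4 lower (median change 0.04). That is 35.1% called, against 3.5% of all probe sets. ICAM1, an adhesion molecule for leukocyte integrins, had 5.37, 5.43 and 5.80 at 30 min and 7.61, 7.48 and 7.63 at 3 h (2.03 ± 0.19, adjusted p = 1.27e-06). CD83, a marker of mature dendritic cells, had 7.78, 7.91 and 7.90 and then 9.58, 9.79 and 9.56 (1.78 ± 0.12, adjusted p = 2.25e-08). CD69, an early activation lectin, had 8.06, 8.23 and 8.16 and then 9.20, 9.66 and 9.67 (1.36 ± 0.28, adjusted p = 0.00449), while its untreated arrays lay between 4.20 and 5.71. CD69 thus stood above the untreated range at 30 min and rose again from there. C3AR1, the receptor of complement fragment C3a, rose by 1.32 ± 0.24, and GPR84, a receptor of medium-chain fatty acids, by 1.31 ± 0.17. IL2RA (1.25), TNFRSF12A (1.19), TNFRSF9 (1.18) and C5AR1 (0.86), receptors of interleukin 2, TWEAK, the ligand 4-1BBL and complement fragment C5a, made up the rest of the 9. Of these, IL2RA, TNFRSF9 and C5AR1 were named after their values had been seen. Outside the list, OLR1, a scavenger receptor for oxidized lipoprotein, rose from 4.31 to 4.64 to 6.24 to 6.85 (2.05 ± 0.29, adjusted p = 0.000143). GBP2, an interferon-induced GTPase, rose by 2.17 ± 0.31 and IER3, a stress-induced survival protein, by 2.36 ± 0.18. For OLR1 and GBP2 the difference from the untreated change was not called (adjusted p = 0.0833 and 0.0615). The remaining 2 of the 15 largest rises were DIXDC1, a regulator of Wnt signaling (3.25 ± 0.14), and CECR2, a chromatin remodeling subunit (2.05 ± 0.26). DIXDC1 had 4.51, 4.60 and 4.60 and then 7.81, 7.80 and 7.85, so both times had arrays close to each other and far from the other time.

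**Figure D3:**
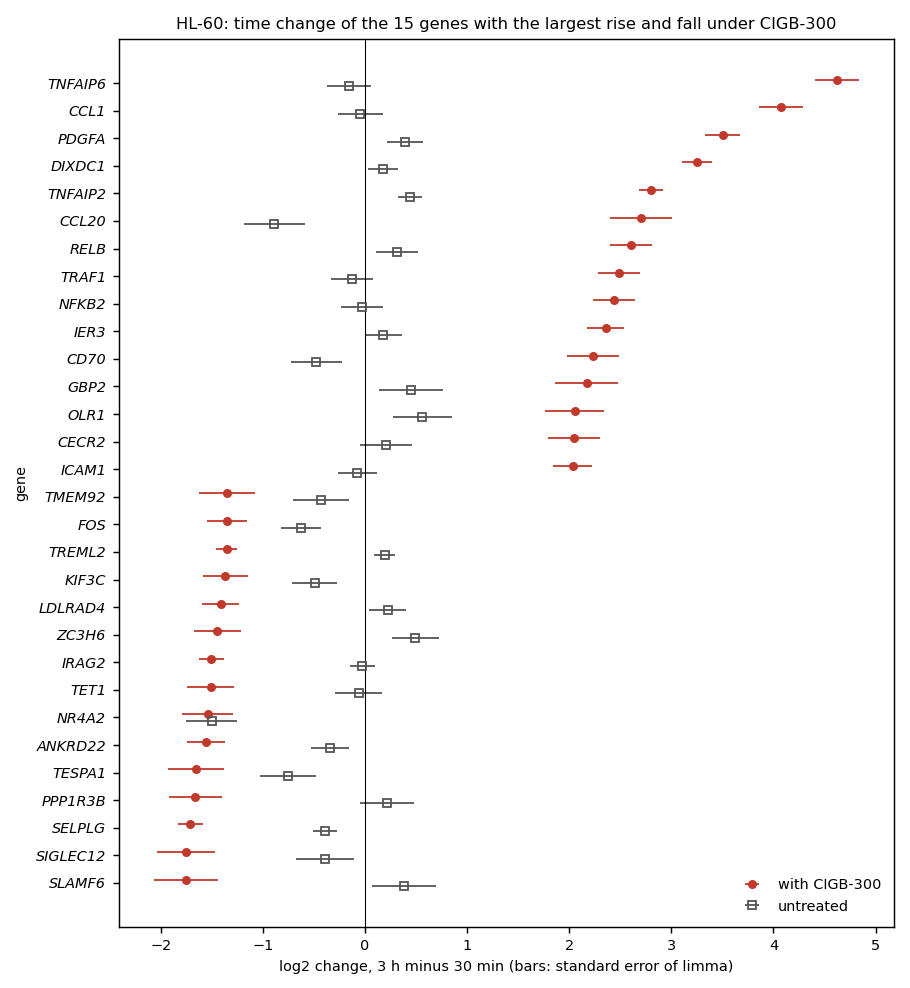
Log2 change from 30 min to 3 h of the 15 genes with the largest rise and the 15 with the largest fall under CIGB-300 (filled circles), with the change of untreated HL-60 cells beside each (open squares), where bars are the standard error of limma. Rises run from 2.03 (ICAM1) to 4.62 (TNFAIP6) with untreated changes between -0.89 (CCL20) and 0.56 (OLR1), and NR4A2 has nearly the same fall with (-1.54) and without (-1.50) the peptide.

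The immediate early transcription factors had the largest share of called falls among the gene lists. Of 27 measured members 7 fell and 2 rose (33.3% called), with a median change of -0.32. In untreated cells 7 members fell, 0 rose and the median was -0.33, against 0.00 over all probe sets. Of these, 4 members, EGR1, EGR3, NR4A2 and JUN, fell in both. EGR1 had 12.04, 12.10 and 11.99 at 30 min and 10.62, 10.78 and 10.72 at 3 h (-1.33 ± 0.22, adjusted p = 0.000771), and untreated arrays had 8.73, 9.06 and 8.94 and then 8.79, 7.52 and 7.51 (-0.97 ± 0.22, adjusted p = 0.0424). The treated arrays stayed above all untreated ones at both times, and untreated replicate 1 at 3 h kept the 30 min level. EGR3, a relative of EGR1, had 11.23, 11.37 and 11.27 and then 9.93, 10.05 and 9.92 (-1.32 ± 0.23, adjusted p = 0.00125), and fell from 6.59 to 7.14 to 4.12 to 5.02 without the peptide (-2.30 ± 0.23, adjusted p = 8.7e-05). The difference of these changes was not called (0.98 ± 0.33, adjusted p = 0.181). NR4A2, an orphan nuclear receptor, had 8.01, 8.06 and 7.87 and then 6.33, 6.58 and 6.40 (-1.54 ± 0.25, adjusted p = 0.000598), beside an untreated change of -1.50 ± 0.25. JUN, a subunit of AP-1, had 9.84, 9.69 and 9.74 and then 8.68, 8.74 and 8.99 (-0.95 ± 0.14, adjusted p = 0.00032), beside -1.45 ± 0.14 without the peptide. For these 4 genes the 2 time changes did not differ by the test, with adjusted p between 0.181 and 0.984, and they fell from a higher treated level to a lower but still raised one.

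FOS, the partner of JUN in AP-1, had 8.34, 7.93 and 8.12 and then 6.61, 6.98 and 6.74 (-1.35 ± 0.19, adjusted p = 0.000209). Its untreated change was smaller and not called (-0.63 ± 0.19, adjusted p = 0.157), and at 3 h the lowest treated array, 6.61, was close to the highest untreated one, 6.58. FOSB fell by 0.92 ± 0.20 (adjusted p = 0.00827), beside -0.81 ± 0.20 untreated (adjusted p = 0.0719). CSRNP1, a nuclear protein rich in cysteine and serine and named after its values had been seen, fell by 0.63, and the call was lost without replicate 3 at 3 h, where the fall was 0.58. NR4A3 had 8.50, 8.35 and 8.13 and then 7.12, 7.47 and 7.27 and missed the threshold (-1.04 ± 0.32, adjusted p = 0.0594), while its untreated arrays lay between 2.16 and 3.27. The 2 members that rose were IER3, given above, and NAB2, which represses EGR proteins. NAB2 had 6.75, 5.29 and 6.42 and then 7.30, 8.31 and 7.42 (1.52 ± 0.30, adjusted p = 0.00391), with replicate 2 lowest at 30 min and highest at 3 h. The NAB2 call was lost with only the 6 treated arrays in the fit (adjusted p = 0.14).

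Several other early genes were not called and were still above the untreated arrays at 3 h. NR4A1, the third NR4A receptor, had 8.99, 8.73 and 8.72 and then 8.32, 8.54 and 8.21 (-0.45 ± 0.17, adjusted p = 0.132), against 5.04 to 5.75 in untreated arrays. JUNB had 9.94, 9.97 and 10.00 and then 9.78, 9.87 and 9.82 (-0.15 ± 0.15, adjusted p = 0.669), against 8.68 to 9.24 untreated. ZFP36, the protein TTP that speeds decay of AU-rich transcripts, had 9.57, 9.78 and 9.63 and then 9.33, 9.57 and 9.26 (-0.27 ± 0.10, adjusted p = 0.111). In each of the 3 every treated array stood above every untreated one at both times, and the 3 h arrays lay below those of 30 min. GADD45B, a stress-response gene, had 9.77, 9.43 and 9.64 and then 9.25, 9.14 and 9.19, with an adjusted p of 0.0157 but a change of -0.42 ± 0.10, short of the fold limit. EGR4 (0.10 ± 0.18) and SRF, the serum response factor itself (-0.12 ± 0.11), were not called. JUND, another AP-1 subunit, had 9.85, 9.78 and 9.64 and then 10.34, 10.81 and 9.93 and was not called (0.60 ± 0.18, adjusted p = 0.052). Its untreated change was -0.51 ± 0.18, so that the difference of the changes was called (1.11 ± 0.25, adjusted p = 0.0296), and at 3 h treated cells were 1.14 above untreated ones (adjusted p = 0.000466). KLF10, a zinc finger factor induced by TGF-β and named after its values had been seen, changed by 0.50 with the peptide, short of the fold limit, and by -0.59 without it, and this difference was called too (adjusted p = 3.7e-05). With IER3 these made up the 3 members whose change was called higher under the peptide than without it.

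A further group of genes fell with the peptide and had no call in untreated cells. SELPLG, the leukocyte ligand of selectins, had 8.89, 8.77 and 8.54 at 30 min and 7.13, 7.11 and 6.83 at 3 h (-1.71 ± 0.12, adjusted p = 3.16e-08). Its untreated arrays had 8.73 to 8.94 and then 8.36 to 8.60, so the treated arrays overlapped the untreated ones first and were all below them later (difference of the changes -1.32 ± 0.17, adjusted p = 0.000162). SLAMF6, a receptor of the SLAM family, had 6.48, 6.72 and 6.14 and then 5.09, 5.19 and 3.80, the largest fall of all (-1.75 ± 0.31, adjusted p = 0.00142), and replicate 3 at 3 h was the lowest. IRAG2, a membrane protein of the endoplasmic reticulum in lymphoid and myeloid cells, went from 8.10, 8.34 and 8.42 to 6.84, 6.74 and 6.77 (-1.50 ± 0.12, adjusted p = 1.64e-07). TREML2, a myeloid cell surface receptor, went from 8.99, 9.22 and 9.04 to 7.73, 7.89 and 7.56 (-1.35 ± 0.10, adjusted p = 1.01e-07). IRAG2 and TREML2 overlapped their untreated arrays at 30 min, were below all of them at 3 h, and differed from the untreated change (-1.48 ± 0.17 and -1.55 ± 0.15). Also among the 15 largest falls were SIGLEC12 (-1.75), PPP1R3B, a glycogen-targeting subunit of protein phosphatase 1 (-1.66), TESPA1 (-1.65), ANKRD22 (-1.56), TET1, which oxidizes methylated cytosine (-1.51), and ZC3H6, a zinc finger protein (-1.45). LDLRAD4, a damper of TGF-β signaling (-1.41), KIF3C, a kinesin motor (-1.37), and TMEM92 (-1.35) completed the 15 with FOS and NR4A2. For SIGLEC12, TESPA1, KIF3C and TMEM92 the difference from the untreated change was not called (adjusted p between 0.121 and 0.355). With only the 6 treated arrays in the fit the calls of SLAMF6 (adjusted p = 0.075), PPP1R3B (0.078), TESPA1 (0.069) and KIF3C (0.0623) were lost.

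Single receptor genes fell as well, beside those that rose above. CSF1R, the receptor of macrophage growth factor, had 6.58, 6.58 and 7.00 and then 5.05, 5.47 and 5.92 (-1.24 ± 0.19, adjusted p = 0.000324), while untreated arrays stayed between 6.53 and 6.95. MERTK, a receptor for engulfing dying cells, had 6.0, 6.27 and 5.42 and then 4.76, 4.75 and 4.39 (-1.26 ± 0.19, adjusted p = 0.000283). CXCR2, a receptor of CXCL8 named after its values had been seen, had 7.43, 7.50 and 7.38 and then 5.80, 6.47 and 6.01 (-1.35 ± 0.16, adjusted p = 2.77e-05). In all 3 the untreated change was within 0.31 of 0 and the difference was called, but the calls of CSF1R and MERTK were lost with only the 6 treated arrays in the fit (adjusted p = 0.0584 and 0.0523). CCR2, a receptor of CCL2 also named after its values had been seen, had 5.34, 6.27 and 5.92 and then 4.79, 3.36 and 5.48 (-1.30 ± 0.36, adjusted p = 0.0325). Its times overlapped, and without replicate 2 at 3 h the change was -0.71 and not called (adjusted p = 0.118). CD86, a costimulatory ligand, fell by 0.80 ± 0.23 (adjusted p = 0.0466), and this call, too, was lost without single arrays (adjusted p up to 0.211). Its arrays went from 3.04 to 3.55 to 2.07 to 2.86, all below the array median. The difference from its untreated change was not called (adjusted p = 0.209). GPR183, an oxysterol receptor that steers cell movement, fell by 0.76 with the peptide, beside a change of -0.57 without it that was not called (adjusted p = 0.123).

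Some intracellular signaling genes of blood cells also fell. ARHGAP25, a Rac-inactivating protein of blood cells, had 9.10, 8.80 and 9.07 and then 7.90, 7.84 and 7.81 (-1.14 ± 0.09, adjusted p = 2.64e-07). RGS14 had 7.55, 7.51 and 7.27 and then 6.44, 6.37 and 6.41 (-1.04 ± 0.13, adjusted p = 4.32e-05), and RGS18 fell by 0.86 ± 0.09. Both RGS proteins speed the shut-off of G proteins. VAV1, a signaling protein downstream of leukocyte receptors, fell by 0.66 ± 0.09. The difference from the untreated change was called for all 4. ARHGAP12 took a different course. It had 6.08, 5.43 and 6.09 at 30 min, above the untreated 4.22 to 4.39, and 4.39, 4.47 and 4.99 at 3 h (-1.25 ± 0.18, adjusted p = 0.00023), when untreated arrays had 4.76 to 5.18.

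Regulators of blood progenitors gave 3 lower and 2 higher of 27 measured (18.5% called), with a median change of -0.10. RUNX1, a master factor of blood formation, had 11.48, 11.46 and 11.43 at 30 min and 10.56, 10.59 and 10.51 at 3 h (-0.90 ± 0.07, adjusted p = 1.01e-07), while untreated arrays stayed between 11.17 and 11.37. SOX4, a factor of immature cells, had 8.49, 8.46 and 8.60 and then 7.54, 7.65 and 7.52 (-0.95 ± 0.09, adjusted p = 1.21e-06), and FLI1, an ETS factor, fell by 0.64 ± 0.09. The difference from the untreated change was called for RUNX1 and SOX4. For FLI1 it had an adjusted p of 0.0299 but was short of the fold limit (-0.54 ± 0.12). ID1, an inhibitor of basic helix-loop-helix factors, rose from 2.80 to 3.30 to 4.19 to 4.30, below the array median (1.14 ± 0.21, adjusted p = 0.0017). GATA2, a progenitor factor, rose by 0.86, a call lost without replicate 3 at 30 min (adjusted p = 0.0514). CEBPA, a factor of granulocyte development, had an adjusted p of 0.0357 but changed by -0.47 ± 0.13, and CEBPB (0.09 ± 0.19) was not called.

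Among factors that act on transcripts, 3 of 17 decay factors rose and 1 fell (23.5% called, against 3.5% of all probe sets). ZFP36L2, a relative of TTP, had 12.59, 12.66 and 12.55 and then 11.62, 11.77 and 11.68 (-0.91 ± 0.07, adjusted p = 2.16e-07), with untreated arrays between 12.27 and 12.48. Its 3 h arrays were below all others although ZFP36 itself, given above, was not called. TOB2 (0.77), BTG3 (0.73), both of a family that binds deadenylases, and SMG1, a kinase of nonsense-mediated decay (0.68), rose, and none of the 3 differed from the untreated change by the test (adjusted p between 0.0638 and 0.347).

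Stress programs rose in single members. Of 21 NRF2 targets and regulators 4 rose and 0 fell (19% called, median change 0.22, against 0.01 untreated). SQSTM1, the autophagy receptor p62, had 9.67, 9.71 and 9.67 and then 10.87, 10.93 and 10.92 (1.22 ± 0.07, adjusted p = 3.09e-09), and SLC7A11, the cystine importer, had 8.61, 8.38 and 8.66 and then 9.47, 9.66 and 9.63 (1.04 ± 0.11, adjusted p = 5.63e-06). OSGIN1, an oxidative stress-induced growth inhibitor (1.58 ± 0.28), and ME1, which makes NADPH (1.02 ± 0.11), were the other 2, and HMOX1, heme oxygenase and a standard target of NRF2, had 0.73 and was not called. Of 34 probe sets of the ATF4 response 3 rose (8.82% called, against 3.5% of all probe sets). They were DDIT4, an inhibitor of mTORC1 (1.17 ± 0.19), SESN2 (0.92 ± 0.13) and again SLC7A11. ATF4 itself (0.17) and DDIT3, its proapoptotic partner CHOP (0.03), were not called. HERPUD1, of the degradation machinery of the endoplasmic reticulum, rose with (1.36 ± 0.12) and without (0.84 ± 0.12) the peptide. PMAIP1, the BH3-only protein NOXA, had 10.28, 10.07 and 9.90 and then 9.44, 9.69 and 9.15, a fall of 0.66 ± 0.18 that was lost without single treated arrays (adjusted p up to 0.176), with untreated arrays between 6.77 and 7.74. The untreated change of PMAIP1 was close to it at -0.60 ± 0.18, not called (adjusted p = 0.15). The difference of the 2 changes was -0.055 ± 0.26 (adjusted p = 0.969). CDKN1A, the cell cycle inhibitor p21, rose by 0.92 ± 0.25, a call that was lost without any 1 of 5 treated arrays (adjusted p up to 0.151). Its difference from the untreated change was not called (1.03 ± 0.36, adjusted p = 0.209).

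**Figure D4:**
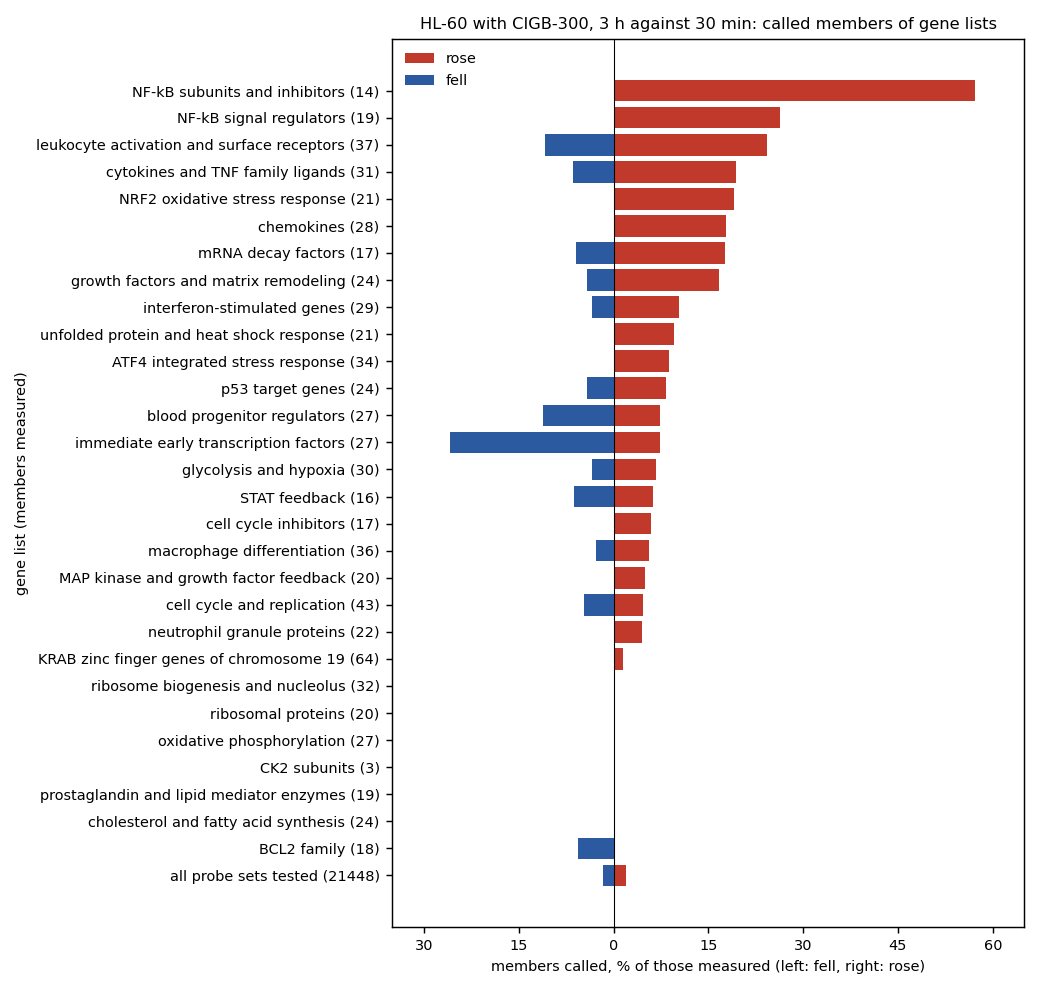
Share of the measured members of the gene lists that fell (left) or rose (right) from 30 min to 3 h of CIGB-300, as a percent of the members measured (number in brackets), with all 21448 probe sets at the bottom. NF-kB subunits and inhibitors stand highest on the right (8 of 14), immediate early transcription factors farthest to the left (7 of 27), and ribosomal proteins, oxidative phosphorylation and CK2 subunits are at 0.

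In several lists, most of them of housekeeping functions, limma called no member. Among 20 ribosomal proteins the median change was -0.07, among 27 genes of oxidative phosphorylation 0.01, and 1 and 3 members had an unadjusted p under 0.05. Ribosome biogenesis (32 genes, median 0.13) had 10 such members, all higher. Cholesterol and fatty acid synthesis (24 genes, median -0.11) had 6, of which 5 were lower, and prostaglandin synthesis (19 genes, median -0.07) had 5, of which 4 were lower. Of 43 cell cycle genes 2 rose and 2 fell (9.3% called). CCNE2, cyclin E2 (0.88 ± 0.11), and CCND1, cyclin D1 (0.73 ± 0.13), rose. CDT1, a licensing factor of replication (-0.67 ± 0.13), and CDC25B, a phosphatase of mitotic entry (-0.63 ± 0.12), fell. The CDC25B call was lost without replicate 1 at 30 min. Among these, CCND1 alone differed from its untreated change by the test (adjusted p = 0.0186), with 0.317 to 0.482 for the others. The untreated change of CCNE2 was 0.50 ± 0.11 (adjusted p = 0.0355), short of the fold limit. The catalytic CK2 genes CSNK2A1 (-0.09) and CSNK2A2 (-0.07) were not called, with an unadjusted p of 0.05 or more for all 3 CK2 genes measured. GAPDH, a glycolytic enzyme often used as a reference, had 13.06, 13.05 and 13.03 and then 13.03, 13.02 and 13.02, and ABL1, a kinase gene used in the same way, changed by 0.08 ± 0.10.

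The other lists held few called members. Apart from the marker lists, the called share ran from 1.56% (KRAB zinc finger genes) to 13.8% (interferon-stimulated genes), against 3.5% of all probe sets. Neutrophil granule genes (4.55%) and MAP kinase feedback (5%) lay close to that general share. Of 29 interferon-stimulated genes 3 rose (GBP2, the RNA sensor IFIH1 by 0.84 and IRF9) and 1, the antiviral enzyme OAS1, fell, and the calls of IRF9 and OAS1 were lost without single treated arrays (adjusted p up to 0.0953 and 0.135). Of 21 genes of the unfolded protein and heat shock response 2 rose, HERPUD1 and the chaperone HSPA1A, which rose by 0.82 ± 0.13 with the peptide beside 0.58 ± 0.13 without it. Of 20 genes of MAP kinase feedback only the phosphatase DUSP16 rose (0.73 ± 0.14). In the STAT feedback list of 16, the kinase PIM3 rose by 0.59, a call lost without single treated arrays (adjusted p up to 0.0767), and the repressor BCL6 fell by 0.70 with and without the peptide. Of 24 p53 targets CDKN1A and SESN2 rose and PMAIP1 fell, the last being also the 1 call among 18 BCL2 family genes, and CDKN1A was the 1 call among 17 cell cycle inhibitors. Of 30 genes of glycolysis and hypoxia 2 rose, ADM and the glucose transporter SLC2A3, whose call was lost without replicate 3 at 3 h (log2 change 0.56), and the transporter SLC2A1 fell by 0.68. SLC2A1 changed by -0.45 ± 0.12 without the peptide, and the difference was not called (-0.23 ± 0.17, adjusted p = 0.676). Of 36 genes of macrophage differentiation OLR1 and the Fc receptor FCGR1A rose and CSF1R fell, and the FCGR1A change of 0.59 dropped under the fold limit without any 1 of 3 treated arrays. OLFM4 was the 1 member called among 22 neutrophil granule genes (1.29 ± 0.27), and ZNF780A the 1 among 64 KRAB zinc finger genes (0.62, adjusted p up to 0.113 without single treated arrays). Marker lists of B cells, erythroid cells and epithelium, with array means of 5.71 to 6.10, 4.20 to 4.60 and 3.84 to 4.17 over the treated arrays, held no call, and 0, 0 and 1 member had an unadjusted p under 0.05.

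In treated OCI-AML3 cells 362 probe sets (1.69%) were called over the same time, 202 higher (0.942%) and 160 lower (0.746%). The difference between the lines was called for 320 (1.49%), 158 with the higher change in HL-60 (0.737%) and 162 with the lower (0.755%). Of the 15 genes with the largest rise in HL-60, 3 were also called higher in OCI-AML3 (PDGFA, RELB and NFKB2), and the others changed there by -0.44 to 0.48 and were not called. All 15 had a called difference between the lines, but they were chosen for a large HL-60 change, which is itself part of this difference. PDGFA rose in OCI-AML3 from 7.99, 7.87 and 7.83 to 8.82, 8.68 and 8.26 (0.69 ± 0.17, adjusted p = 0.0335). TNFAIP6, with the widest difference between the lines, had 5.36, 5.36 and 5.47 at 30 min and 5.93, 5.55 and 5.74 at 3 h in OCI-AML3, so that the changes differed by 4.28 ± 0.31 (adjusted p = 1.84e-07). For CCL1 the difference was 4.22 ± 0.31, for DIXDC1 3.06 ± 0.20, for TNFAIP2 2.93 ± 0.17 and for TRAF1 2.85 ± 0.29, and in each of them the OCI-AML3 change lay between -0.36 and 0.19. Among the feedback genes, TNFAIP3 rose in OCI-AML3 from 8.62, 8.64 and 8.62 to 10.06, 10.02 and 10.18 (1.46 ± 0.12, adjusted p = 4.51e-06), and the difference from HL-60 was not called (0.40 ± 0.18, adjusted p = 0.315). RELB and NFKB2 rose in OCI-AML3 by 1.27 each, less than in HL-60 (differences 1.34 ± 0.29, adjusted p = 0.0202, and 1.17 ± 0.29, adjusted p = 0.0457). NFKBIA, with 9.73, 9.70 and 9.79 and then 9.88, 9.62 and 9.79, overlapped between the times in OCI-AML3 and differed from HL-60 by 1.20 ± 0.18 (adjusted p = 0.000953). On the other side, PPP1R3B (-2.12 ± 0.37), SLAMF6 (-1.84 ± 0.44) and CYTIP, a regulator of leukocyte adhesion (-1.91 ± 0.24), had the lower change in HL-60. ARHGAP31 (-2.09 ± 0.24) and CEMIP, a hyaluronan-degrading protein (-1.83 ± 0.39), rose in OCI-AML3 by 1.66 and 1.79 and were below the array median and not called in HL-60. EGR1 and EGR3 fell in OCI-AML3 by 1.15 and 2.11, and neither differed from HL-60 by the test (adjusted p = 0.859 and 0.276).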

How the data were processed

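Per the labels and the methods, the authors processed Clariom S HT arrays by RMA (convolution background, quantile normalization, robust summary of probes), so the deposited unit is log2 signal. The versions of their array processing tools are not given in the sources used here. One untreated OCI-AML3 array removed by the authors was not analysed here. Of 27189 features, 5741 controls were left out and 21448 probe sets tested, 17709 (82.6%) with 1 symbol in the platform annotation. Detection above background was not tested. A single limma 3.58.1 model (R 4.3.3) with a mean for each of 8 groups took in the 23 arrays, p was adjusted by Benjamini and Hochberg over all probe sets, and the calculation was tested on simulated data. The number of arrays limits the precision. Each p-value sets a change against a spread between replicate arrays that is pooled over all 8 groups, untreated and OCI-AML3 arrays included.

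Named are the 15 largest called rises and falls with no overlap of arrays, up to 5 called members each way of each of 30 lists, up to 8 each way for the difference from untreated cells, up to 5 each way for that between lines, and genes the paper names. Others are marked. One list is not reported here as a whole. The comparison, lists and rules were chosen with earlier results of these data known. Titles of 3 untreated OCI-AML3 arrays read 30 h and their time label 3 h, and they enter only the shared variance here. Alternatives changed the arrays in the fit, the variance model, array weights, normalization, a filter on dim probe sets, thresholds and a replicate block, and left out each HL-60 array. Promoters came from RefSeq (GRCh38.p14), with 14250 of 17687 genes matched.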

Additional observations from a re-analysis of the deposited data

Results flagged for a closer look

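The time change under CIGB-300 differed from that of untreated HL-60 cells for 294 probe sets, and from that of treated OCI-AML3 cells for 320, by the limma test of the difference itself.

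Against untreated cells, the difference of the log2 changes was 4.78 for TNFAIP6, 4.12 for CCL1, 3.59 for CCL20, 3.11 for PDGFA, 3.08 for DIXDC1, 2.71 for CD70, 2.62 for TRAF1 and 2.47 for NFKB2. It was -2.14 for SLAMF6, -2.02 for ZFP14, -1.99 for ARHGAP12, -1.94 for ZC3H6, -1.88 for PPP1R3B, -1.63 for LDLRAD4, -1.57 for MERTK and -1.55 for TREML2. For ZFP14, a zinc finger protein, neither time change was called on its own (-0.66 with the peptide, 1.37 without, adjusted p = 0.28 and 0.0562).

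Against OCI-AML3 cells the difference was 4.28 for TNFAIP6, 4.22 for CCL1, 3.06 for DIXDC1, 2.93 for TNFAIP2 and 2.85 for TRAF1. It was -2.12 for PPP1R3B, -2.09 for ARHGAP31, -1.91 for CYTIP, -1.84 for SLAMF6 and -1.83 for CEMIP. ARHGAP31 and CEMIP had means of 2.56 and 2.73 in treated HL-60 cells at 3 h, under the array median.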

How the results depend on the processing

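Of 113 named called genes, 73 kept the call under each of the 22 settings that tested their probe set, 40 lost it under at least 1, and 0 reversed. A gene taken out by the filter on dim probe sets was not tested in that setting. Leaving out an untreated array alters the pooled spread but not the treated change itself. With only the 6 treated HL-60 arrays in the fit, 36 of the 113 lost it (adjusted p between 0.0513 and 0.277), among them, beside those given above, REL, TOB2, IL2RA, DDIT4, DUSP16, OLFM4, ARHGAP12, CCND1, CDT1, SLC2A1 and CYTIP. Of 34 named genes not called, 3 were called under some setting. The count of 751 (409 higher, 342 lower) became 352 (195, 157) with only the 6 treated HL-60 arrays in the fit, 197 (136, 61) with a fold of at least 2 and 1458 (688, 770) with no fold limit. Leaving out each HL-60 array in turn gave 600 to 801 (320 to 409 higher, 280 to 413 lower).

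The untreated count of 111 became 31 with only the 12 HL-60 arrays, 32 with these normalized alone, 321 with an unadjusted p under 0.01, 20 with a fold of at least 2 and 196 with no fold limit. Left-out arrays gave 66 to 121, with 66 without untreated replicate 1 at 30 min, 73 without untreated replicate 2 at 3 h and 70 without untreated replicate 3 at 3 h. The 294 differences from untreated cells became 165, 160, 695 and 134 under the first 4 of these settings, and 207 to 278 with left-out arrays. The 320 differences between lines became 802 with the unadjusted p, 151 with a fold of 2 and 244 to 364 with left-out arrays. The cause of these shifts was not tested. Other scalings moved the median change of all probe sets from -0.01 by less than 0.01.

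With the replicate number as a block, 724 were called (394 higher, 330 lower), 700 of them among the 751. Deviations of arrays with the same number did not correlate (r between -0.011 and -0.0049 for the 3 numbers), and 5 of 12 HL-60 arrays correlated best with their own number. With 3 arrays per group, these values cannot tell whether arrays of the same number shared a culture or a processing batch.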
